A study of Mus musculus with 8 samples.

Results

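Metabotropic glutamate receptors were followed through the genes Grm2, Grm3, Grm4, Grm5, Grm7 and Grm8 in the striatum of 8 old mice, and every probe set assigned to 1 of these 6 genes alone was taken. This gave 9 of the 45037 non-control probe sets of the array, 3 for Grm7, 2 for Grm5 and 1 for each of the other genes, and 6 of 18193 genes. The mutant group held 4 CHL2 mice of Q150/Q150 genotype, in which 150 CAG repeats taken from exon 1 of the human Huntington's disease gene were knocked into the mouse's own gene on both copies. The control group held 4 wild-type mice. All 8 mice were 22 months old and C57BL/6 X CBA F1 hybrid. Mutants 141, 153 and 154 and wild-type 161 were female, and mutant 191 and wild-type 170, 180 and 200 were male. The expanded repeat sits at the endogenous locus, so its expression was not restricted to striatum or to neurons. RNA came from striatum as a whole, 1 Affymetrix Mouse Genome 430 2.0 array per mouse, and fewer cells of a type and less RNA per cell cannot be told apart in such samples.

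Metabotropic glutamate receptors are class C G protein-coupled receptors that work as dimers and bind glutamate in a large extracellular domain. Group I, which includes Grm5, couples to Gq and phospholipase C and sits largely on the postsynaptic side, where Homer proteins tether it to the postsynaptic density. Group II, Grm2 and Grm3, and group III, Grm4, Grm7 and Grm8, couple to Gi/o proteins, lower cyclic AMP and, at many nerve terminals, reduce transmitter release. In striatum the group I receptor mGlu5 is abundant on medium spiny neurons, the output cells that receive glutamate from cortex and thalamus, and Grm3 is also transcribed in astrocytes.

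RefSeq promoter windows were found for 4 of the 6 genes, Grm2, Grm3, Grm7 and Grm8, in the GRCm38.p6 build. The 250 bases upstream of the annotated start are shown for Grm3 and Grm7, which each had a probe set that was lower in mutants, and for Grm2, which had none. The only Grm2 probe set read near background in all 8 mice (log2 signal under 5), so its lack of a call does not show an unchanged level. The Grm8 windows are not shown. Capitals mark the letters GGGCGG, a GC box of the kind bound by Sp1, searched on both strands. Grm3 lies on the minus strand (chr5:9725353-9725602), Grm7 on the plus strand (chr6:110645262-110645511, the more upstream of 2 annotated starts) and Grm2 on the minus strand (chr9:106656110-106656359), and each is written 5′ to 3′ along its gene.
Grm3: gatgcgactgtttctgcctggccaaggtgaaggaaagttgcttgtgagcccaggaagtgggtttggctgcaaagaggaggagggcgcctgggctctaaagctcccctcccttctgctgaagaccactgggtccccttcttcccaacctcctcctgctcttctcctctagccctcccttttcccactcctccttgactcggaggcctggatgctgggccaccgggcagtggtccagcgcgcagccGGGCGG
Grm7: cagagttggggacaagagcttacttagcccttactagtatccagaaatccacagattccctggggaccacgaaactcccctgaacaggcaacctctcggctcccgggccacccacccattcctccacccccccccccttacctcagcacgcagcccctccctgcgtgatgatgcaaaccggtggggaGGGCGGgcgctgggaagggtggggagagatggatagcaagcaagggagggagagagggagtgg
Grm2: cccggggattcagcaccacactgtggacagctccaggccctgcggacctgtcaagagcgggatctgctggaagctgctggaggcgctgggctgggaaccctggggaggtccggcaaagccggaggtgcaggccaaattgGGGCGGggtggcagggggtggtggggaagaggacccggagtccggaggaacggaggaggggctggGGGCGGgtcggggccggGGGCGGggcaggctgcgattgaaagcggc
The letters GGGCGG occurred 1 time in the Grm3 window, 1 time in the Grm7 window and 3 times in the Grm2 window, and 32.7% of the 32851 RefSeq windows of this length hold them. Neither the cyclic AMP response element TGACGTCA, held by 1.55% of all windows, nor the TATA box letters TATAAA, held by 12.4%, occurred in any of the 3 windows, searched on both strands. The GC content was 62.4% for Grm3, 62.0% for Grm7 and 71.2% for Grm2, against a median of 52.4% over all windows. These matches describe the letters alone.

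Values are the authors' log2 signals per probe set, and changes are mutant minus wild type in log2 units from a limma fit with genotype and recorded sex as terms. Array medians lay between 4.95 and 4.98. A log2 signal of 5, the log2 of 32, is used below as a mark for signal near background. Wild-type 170 stood apart in RNA quality. Its 3' minus 5' difference was 1.37 for the Gapdh control probe sets, against 0.32 to 0.43 in the other 7 mice, and 2.65 for beta-actin, against 1.23 to 1.51. The fit without wild-type 170 called the same number of receptor probe sets, 5 lower and 0 higher.

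Of the 9 receptor probe sets, 5 were lower in mutants at an adjusted p under 0.05 and 0 were higher. They were the single probe sets of Grm3 and Grm4, both probe sets of Grm5 and 1 of the 3 for Grm7. Over all 45037 probe sets 6.7% passed, 3.44% lower and 3.26% higher. The median log2 change was -0.56 over the 9 receptor probe sets and 0.0031 over all probe sets. For the same 5 probe sets all mutant values lay below all wild-type values, a pattern found for 7.07% of all probe sets, while 8.34% had all mutants above, 15.4% in all. Calls were more frequent at higher signal. Among probe sets with a mean over 7, 14.5% passed in either direction, and 3 of the 4 receptor probe sets in this range were lower. Between 5 and 7 the share was 9.2%, and both receptor probe sets there were lower. Under 5 it was 1.42%, and 0 of the 3 receptor probe sets passed. With each gene represented by its brightest probe set, 3 of 6 receptor genes fell, Grm3, Grm4 and Grm5, and 0 rose, while 6.01% of 18193 genes fell and 6.4% rose, 12.4% in all. Their groups did not overlap, as for 20.7% of all genes, 9.27% with mutants lower and 11.4% with mutants higher. The median log2 change was -0.41 over the 6 genes and 0.0052 over all genes.

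**Figure D1:**
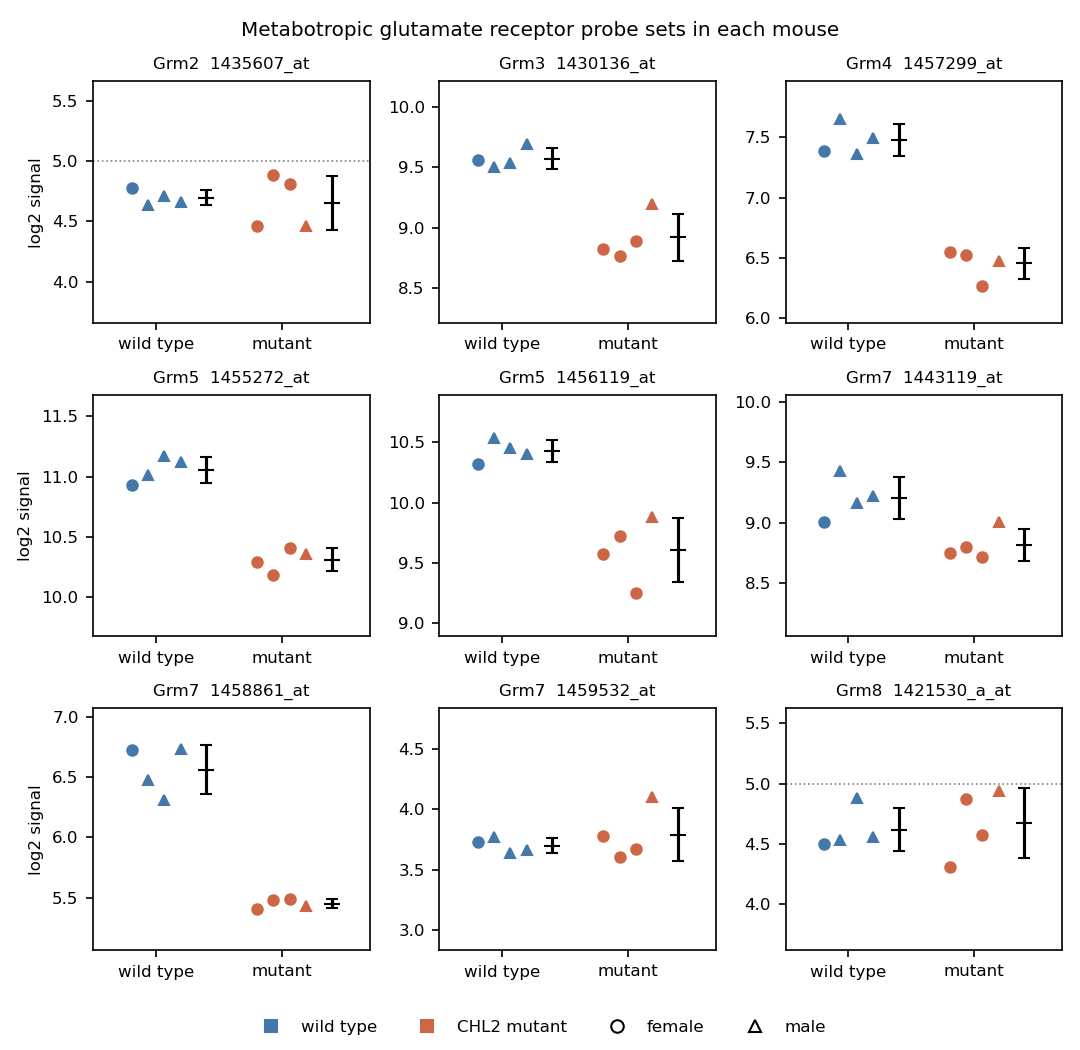
Log2 signal of the 9 receptor probe sets in each mouse, 1 panel per probe set on its own axis of equal span, with circles for females, triangles for males, bars for the mean ± SD of 4 mice and a dotted line at 5 where it falls in the panel. Both Grm5 probe sets, Grm3, Grm4 and 1458861_at of Grm7 have all mutants below all wild-type mice, while Grm2, Grm8 and the other 2 Grm7 probe sets overlap.

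The group I receptor gene Grm5 was lower in the mutants on both of its probe sets. On 1455272_at the log2 signals were 10.93, 11.01, 11.17 and 11.12 in wild-type mice 161, 170, 180 and 200, and 10.29, 10.18, 10.41 and 10.36 in mutants 141, 153, 154 and 191. The lowest wild-type mouse was therefore 161 and the highest mutant was 154, and the groups did not overlap. The change was -0.69 (SE 0.09, 95% interval -0.89 to -0.48, adjusted p = 0.00235), or 1.61-fold lower. On 1456119_at the log2 signals were 10.32, 10.53, 10.45 and 10.40 in the wild-type mice in the same order and 9.58, 9.72, 9.25 and 9.88 in the mutants. Mutant 154 was the lowest and mutant 191 the highest of its group, and again the groups did not overlap. Its change of -0.69 (SE 0.12, adjusted p = 0.0101) was 1.62-fold. Without mutant 191 neither probe set passed among all probe sets (-0.63, adjusted p = 0.0678, and -0.80, adjusted p = 0.0760). Without wild-type 161 the second did not pass (-0.58, adjusted p = 0.183). When sex was also left out, both passed without mutant 191 (-0.76, adjusted p = 0.00118, and -0.91, adjusted p = 0.00148). The second then also passed without wild-type 161 (-0.86, adjusted p = 0.00452). Among genes, with sex in the fit, 1455272_at passed without mutant 191 (adjusted p = 0.0328).

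The group II receptor gene Grm3 had log2 signals of 9.56, 9.50, 9.53 and 9.70 in wild-type mice 161, 170, 180 and 200, and of 8.82, 8.77, 8.89 and 9.20 in mutants 141, 153, 154 and 191. Mutant 191, the male mutant, lay closest to the wild-type mice, and the groups did not overlap. Grm3 fell by 0.56 on the log2 scale (SE 0.10, 95% interval -0.79 to -0.32, adjusted p = 0.0126), which is 1.47-fold. The call was lost without wild-type 161 (-0.38, adjusted p = 0.238) and passed when sex was also left out of that fit (-0.66, adjusted p = 0.00733). The other group II gene, Grm2, a presynaptic autoreceptor of excitatory terminals, stayed near background. Its values ran from 4.63 to 4.77 in wild-type mice and from 4.46 to 4.89 in mutants, with all 8 under 5. Its change of -0.13 (95% interval -0.39 to 0.13, adjusted p = 0.638) did not pass.

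Among the group III genes, Grm4, which encodes a receptor of striatopallidal and corticostriatal terminals, had the lowest adjusted p of the single-probe-set genes. Its log2 signals were 7.39, 7.65, 7.36 and 7.50 in wild-type mice 161, 170, 180 and 200, and 6.55, 6.52, 6.27 and 6.48 in mutants 141, 153, 154 and 191. Mutant 154 was the lowest, wild-type 170 the highest, and the groups did not overlap. The means were 7.47 ± 0.13 (SD, n = 4) in wild-type mice and 6.45 ± 0.13 in mutants. Grm4 fell by 0.98 on the log2 scale (SE 0.11, 95% interval -1.23 to -0.74, adjusted p = 0.000929), or 1.98-fold. It passed the threshold in all 19 alternative settings, with changes from -1.05 to -0.94. Grm8, whose product is a high-affinity presynaptic receptor, had all 8 values under 5, from 4.50 to 4.88 in wild-type mice and from 4.31 to 4.94 in mutants. Its change of 0.18 (95% interval -0.15 to 0.52, adjusted p = 0.603) did not pass.

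Grm7, which encodes a low-affinity receptor placed at the release zone of terminals, gave 3 different readings from its 3 probe sets. The probe set 1458861_at read 6.73, 6.48, 6.31 and 6.73 in wild-type mice 161, 170, 180 and 200, and 5.41, 5.48, 5.49 and 5.43 in mutants 141, 153, 154 and 191. The 4 mutants lay within a narrow band (SD 0.04) well below the wild-type mice. Its change of -1.17 (SE 0.11, 95% interval -1.43 to -0.92, adjusted p = 0.000453) was 2.25-fold and passed in all 18 settings that gave a value. The brighter 1443119_at read 9.003, 9.43, 9.16 and 9.22 in the wild-type mice and 8.74, 8.80, 8.72 and 9.004 in the mutants. Here the groups overlapped only in that mutant 191 lay just above wild-type 161. The change was -0.26 (SE 0.09, 95% interval -0.47 to -0.05) with an adjusted p = 0.156, or 0.0936 among genes. It passed without the sex term (-0.39, adjusted p = 0.0423 among probe sets). The third, 1459532_at, had all 8 values under 5, between 3.60 and 4.10, and a change of 0.19 (adjusted p = 0.443). With its 3 probe sets averaged Grm7 passed among genes (-0.41, adjusted p = 0.00953). With 1443119_at standing for the gene it also passed among genes without the sex term (adjusted p = 0.0241), with a trended and robust prior (0.0415) and with genes above the median level alone (0.0423), so the call for the gene turned on the probe set, the fit and the filter. Where the 3 probe sets lie in the Grm7 transcripts was not analysed here.

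**Figure D2:**
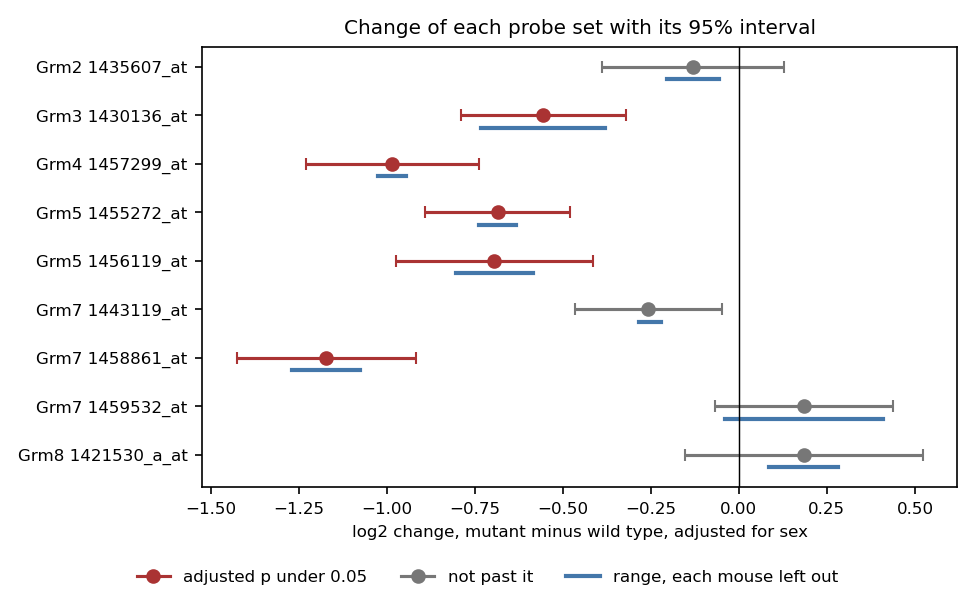
Log2 change (mutant minus wild type, adjusted for sex) of each receptor probe set with its 95% interval as a horizontal bar, red where the adjusted p is under 0.05 and grey otherwise, and in blue the range of the change when each of the 8 mice is left out in turn. The 5 red points lie between -1.17 and -0.56, and the blue range of 1459532_at for Grm7 spans 0.

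The difference between probe sets of a gene was then compared within each mouse, a comparison chosen after the values were seen. Among the 6 receptor probe sets with all values over 5 there were 15 pairs, each compared by a two-sided exact permutation test over 70 assignments of the mice, whose smallest p is 0.0286, without a term for sex. For Grm7, 1443119_at exceeded 1458861_at by 2.28 to 2.95 in wild-type mice and by 3.23 to 3.57 in mutants, so these ranges did not overlap. The changes of the 2 probe sets differed by 0.72 (95% interval 0.30 to 1.14, exact p = 0.0286, adjusted p = 0.0857). For Grm5 the difference between 1455272_at and 1456119_at was 0.48 to 0.72 in wild-type mice and 0.46 to 1.16 in mutants, and the changes differed by 0.08 (95% interval -0.34 to 0.49, exact p = 0.743). Between genes, the fall of Grm4 exceeded that of Grm3 by 0.37 (95% interval 0.01 to 0.72, exact p = 0.0286, adjusted p = 0.0857). It exceeded that of 1455272_at for Grm5 by 0.28 (95% interval -0.62 to 0.07 for the signed difference of -0.28, exact p = 0.114). Further pairs between genes had the same exact p of 0.0286 and adjusted p of 0.0857. The change of Grm3 minus that of 1458861_at was 0.46, and that of Grm4 minus that of 1443119_at was -0.63. For 1456119_at of Grm5 minus 1443119_at it was -0.43. After adjustment over the 15 pairs 0 passed 0.05. With a smallest p of 0.0286, a pair could pass only if many of the 15 reached that p. This count therefore does not show that the changes were alike.

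**Figure D3:**
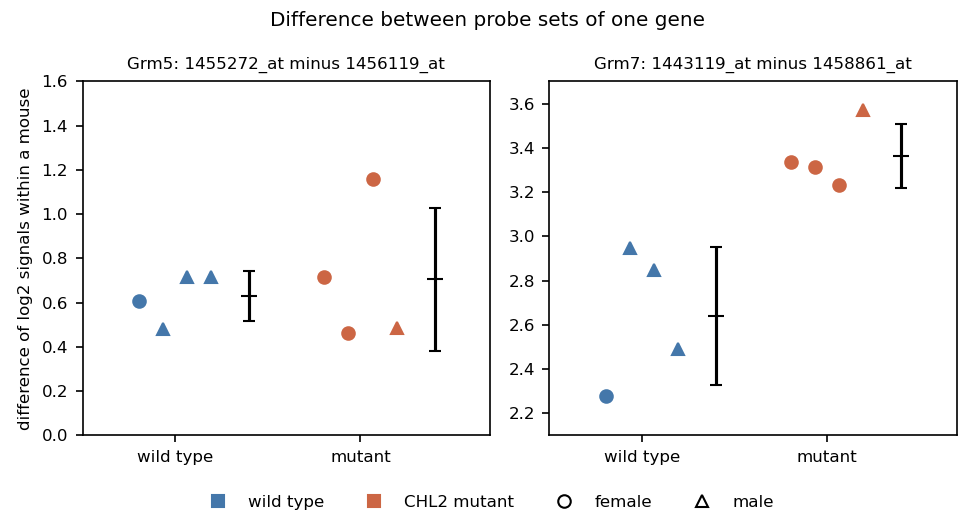
Difference of the log2 signals of a pair of probe sets within each mouse, for Grm5 (left) and Grm7 (right), with circles for females, triangles for males and bars for the mean ± SD of 4 mice. The Grm5 difference overlaps between the groups, and the Grm7 difference is 2.28 to 2.95 in wild-type mice and 3.23 to 3.57 in mutants. The vertical axes cover different ranges.

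Sex was unevenly spread over the genotypes, so the change was also read within each sex, where 1 sex of each genotype is a single mouse. Among females, 3 mutants against wild-type 161, the change was -0.94 for Grm4, -0.73 for Grm3, -0.63 for 1455272_at and -0.80 for 1456119_at of Grm5, and -1.27 for 1458861_at of Grm7. Among males, mutant 191 against 3 wild-type mice, it was -1.02, -0.38, -0.74, -0.58 and -1.08 in the same order. For these 5 all mutant values lay below all wild-type values, so a change below 0 in both sexes was fixed in advance. Among these 5, Grm3 showed the widest gap between the sexes. The gap of 1459532_at for Grm7, which was not called, was wider (-0.04 in females, 0.41 in males). In limma 0 of the 9 probe sets had an adjusted p under 0.05 for sex (0.537 to 0.904) and 0 for the interaction of genotype and sex (0.997 to 0.998). At an unadjusted p under 0.05 there was 1 for sex, 1443119_at of Grm7, and 1 for the interaction, 1459532_at of Grm7. Of all probe sets 0.0311% passed for sex and 0% for the interaction, and 8.38% and 4.04% had an unadjusted p under 0.05.

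Genes that act with these receptors were taken from lists based on known function. Of 26 measured genes of group I signalling and scaffolding, 8 fell and 0 rose, with a median log2 change of -0.12. Rgs4, which shortens Gq and Gi signals, was 2.56-fold lower (adjusted p = 1.25e-05). The scaffold gene Homer1 was 1.83-fold lower, the protein kinase C gene Prkcb 1.64-fold, and the phospholipase C gene Plcb1 fell by 0.58 on the log2 scale. Among the genes that did not pass, the G protein gene Gnaq, named after its values were seen, had a change of 0.27 (adjusted p = 0.0518). The count was 4 without mutant 191, where Plcb1 was among the calls lost, and 5 without wild-type 161. Of all genes 3.86% and 4.75% passed in these fits in either direction, against 12.4% with all mice.

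Of 34 genes of group II and III signalling and partners, 6 fell and 4 rose, with a median of -0.04. The striatal adenylyl cyclase gene Adcy5, an enzyme inhibited by Gi/o-coupled receptors, was 2.74-fold lower (log2 change -1.45), and averaging its probe sets gave -0.59. The signal terminators Rgs9 and Rgs14 were 2.91-fold and 2.49-fold lower, and the G protein gamma subunit gene Gng4 rose 2.53-fold. The other 3 that rose, named after their values were seen, were Gng3, a further gamma subunit gene, the receptor-sorting gene Gprasp1 and Kcnj3, which encodes a Gi/o-gated potassium channel subunit. The other 3 that fell, also named after their values were seen, were the G protein subunit genes Gng7 (1.81-fold) and Gnb5 (1.63-fold) and Adcy9 (1.33-fold). Of 18 genes for glutamate and NAAG handling, 0 fell in limma and 2 rose, with a median of -0.02. The glutamate transporter gene Slc1a6 rose from 4.31 ± 0.15 (SD, n = 4) to 5.43 ± 0.20, which crosses the mark of 5 so that its 2.30-fold change rests on a value near background, and its call was lost with values floored there. The glutamine transporter gene Slc38a1 rose 1.42-fold and lost its call without mutant 191 or wild-type 161. Folh1, which encodes the peptidase that cleaves the Grm3 agonist NAAG, had a change of 0.31 (adjusted p = 0.0619) with all 8 values under 5, and the vesicular glutamate transporter gene Slc17a7 one of -1.45 (adjusted p = 0.0574). Slc17a7 passed without mutant 154 (-1.71, adjusted p = 0.00710) and among genes above the median level alone (adjusted p = 0.0378), and Folh1 passed without the sex term (adjusted p = 0.0321). The groups overlapped for Slc17a7, and the plain difference of its means was -0.52. Without mutant 191 and the sex term its change was 0.10.

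Of 16 ionotropic glutamate receptor genes, the ligand-gated channels that respond to the same transmitter, 5 fell and 0 rose, with a median of -0.29. The kainate receptor gene Grik2 was 2.31-fold lower, the AMPA receptor genes Gria3 1.54-fold and Gria2 1.26-fold, and the NMDA receptor gene Grin2c 1.33-fold. The remaining one, named after its values were seen, was the kainate receptor gene Grik3 (1.48-fold). The count was 1 without mutant 191 and 2 without wild-type 161, and the calls of Grin2c and Gria2 were lost without either. The share of all genes passing in either direction also fell, from 12.4% to 3.86% without mutant 191 and 4.75% without wild-type 161. When sex was also left out of these 2 fits, the shares were 13.7% and 13.2%. Grin2c still did not pass in either (adjusted p = 0.0929 without mutant 191 and 0.100 without wild-type 161). Gria2 did not pass there either (adjusted p = 0.107 and 0.112 in the same order). Of 9 other class C receptor genes 1 fell, the orphan receptor gene Gpr158, by 1.47-fold (adjusted p = 0.0248), a call lost without mutant 191 or wild-type 161. Gprc5d, Gprc5a and Gprc6a did not pass (log2 changes -0.21, -0.16 and 0.19), and the median was -0.01. Against these lists stand the 6.01% of all genes that fell and the 6.4% that rose. With genes above the median level alone, 27.9% passed in either direction, against 12.4% of all genes.

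**Figure D4:**
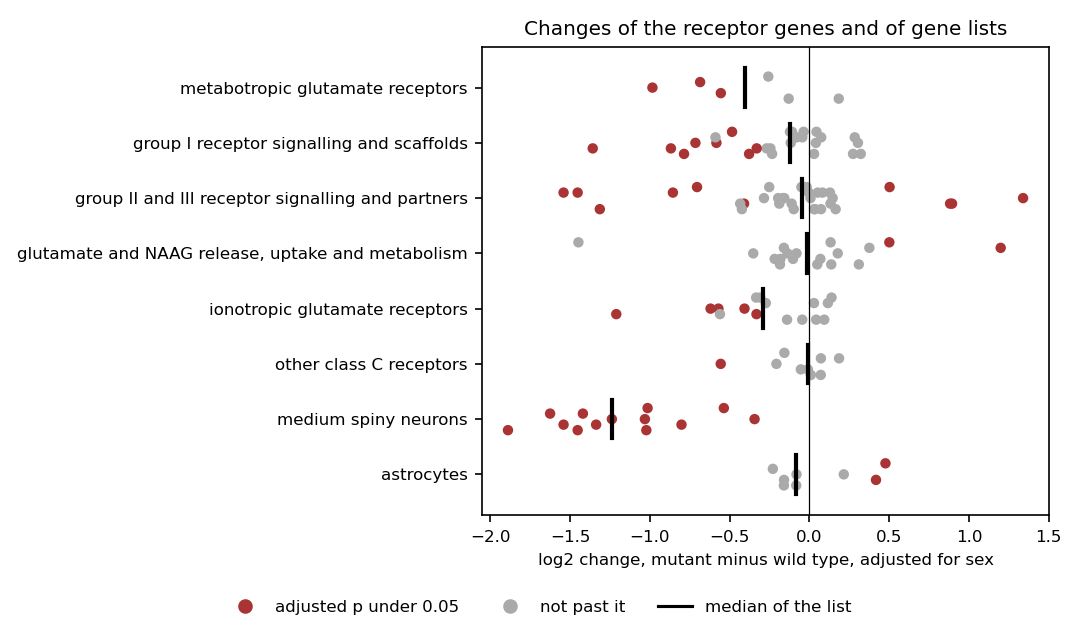
Log2 change (mutant minus wild type, adjusted for sex) of each measured gene of the receptor set and of 7 gene lists, 1 point per gene by its brightest probe set, red where the adjusted p is under 0.05, with a black bar at each list's median. The receptor genes have a median of -0.41, medium spiny neuron markers lie at -1.24 and astrocyte markers at -0.08.

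Striatal markers were present and moved with genotype. The mean log2 signal of 13 medium spiny neuron markers was 11.3 to 11.4 in wild-type mice and 9.99 to 10.2 in mutants. All 13 fell, with a median change of -1.24, and 0 lay under 5 in all mice. Rgs9 and Adcy5 are in this list as well as in that of group II and III signalling. Ppp1r1b, which encodes DARPP-32, was 2.02-fold lower. The falls of Grm3, Grm4 and Grm5 went with this fall of medium spiny neuron markers, and its part in them was not tested. Of 8 astrocyte markers 0 fell and 2 rose, Gfap and S100b, and their mean signal of 9.69 to 9.82 in wild-type mice overlapped that of 9.73 to 9.86 in mutants. Gfap rose 1.39-fold (adjusted p = 0.0341, lost in 6 settings), and the change of the water channel gene Aqp4 was 0.22 (adjusted p = 0.173). Of 6 oligodendrocyte markers 1 fell, Mobp, and Mbp had a change of -0.13 (adjusted p = 0.415). Among 8 interneuron markers 1 fell, Nos1, and 0 rose, and of 3 precursor, 6 microglial, 5 vascular, 5 thalamic and pallidal and 4 choroid plexus and ependymal markers 0 passed in limma. Of 6 cortical neuron markers 1 fell, Fezf2, and Slc17a7 among them ranged from 6.15 to 7.88 in wild-type mice and from 4.59 to 8.03 in mutants. The choroid plexus gene Ttr ranged from 11.6 to 13.9 and from 10.8 to 14.1. Fezf2 changed by -0.67 in the fit with sex (adjusted p = 0.0166), and the plain difference of its group means was -0.39. Its values lay near the mark of 5, from 4.93 to 5.54 in wild-type mice and from 4.33 to 5.21 in mutants, and the groups overlapped. The median change was -0.48 over the cortical markers and -0.54 over the choroid plexus and ependymal markers. The part of these lists in the receptor changes was not tested. Mobp, Nos1, Fezf2 and S100b were named after their values were seen.

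For each receptor gene that fell, the 3 genes closest in profile were found by the root mean square difference of log2 signals over the 8 mice, each gene centred on its own mean, among 11302 other genes with a mean of at least 5. For Grm4 they were Tesc, which encodes a calcium-binding regulator, at 0.07, the sialyltransferase gene St8sia3 at 0.07 and Bcr at 0.08. Their changes ran from -1.09 to -0.96, beside -0.98 for Grm4, and averaging its probe sets gave -0.63 for St8sia3. For Grm5 they were the unconventional myosin gene Myo18a at 0.04, Kctd17 at 0.06 and Kazn at 0.06, with changes of -0.69, -0.75 and -0.59. For Grm3 they were the kinase gene Akt2 at 0.07, the microtubule regulator gene Mtcl1 at 0.07 and the ubiquitin ligase gene Arel1 at 0.08, with changes of -0.52, -0.57 and -0.53. Averaging its probe sets gave -0.30 for Mtcl1, and Arel1 did not pass that way (-0.41, adjusted p = 0.310). Without wild-type 161 Akt2 (-0.44, adjusted p = 0.102) and Arel1 (-0.47, adjusted p = 0.0707) did not pass, nor did Kazn without mutant 191. With all 8 mice and brightest probe sets all 9 fell (adjusted p from 5.49e-05 to 0.00509). Since the measure looks for profiles with the same step between the groups, this says only that their levels ran alike in these mice.

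**Figure D5:**
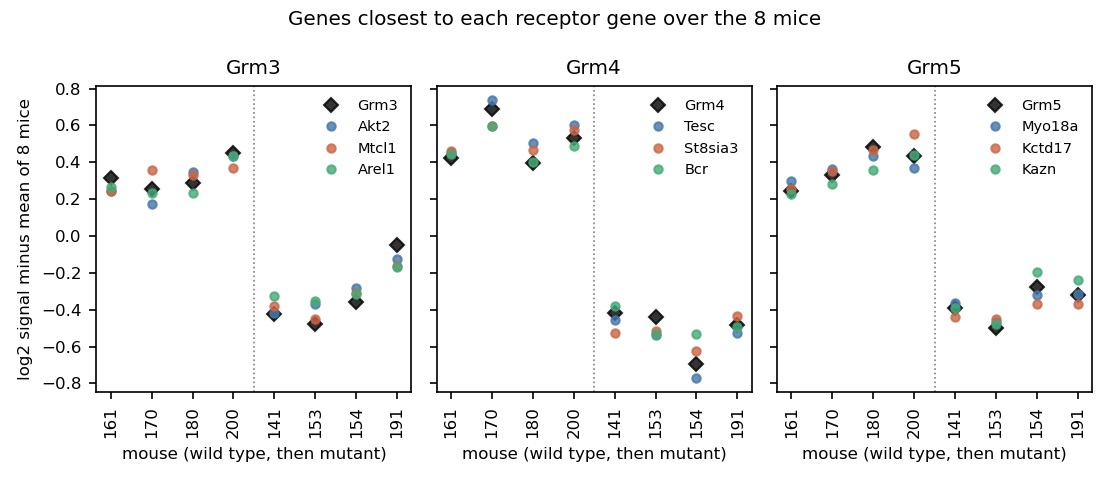
Log2 signal minus each gene's mean over the 8 mice for Grm3, Grm4 and Grm5 (black diamonds) and the 3 genes closest to each (coloured circles), with wild-type mice left of the dotted line and mutants right of it. Every gene shown is above its mean in the 4 wild-type mice and below it in the 4 mutants.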

How the data were processed

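Per the labels, each of 8 striatal RNA samples was hybridised to 1 Affymetrix array, and the deposited values are log2 signals per probe set that the authors made with RMA and the affy package, per the submitters' processing notes, with versions not given in the sources used here. This method forces arrays to 1 distribution and compresses changes of dim probe sets. The number of arrays limits the precision. Here 64 control rows were left out, and probe sets were named from GEO's platform annotation, with 34945 of 45037 assigned to 1 gene. limma 3.58.1 in R 4.3.3 (lmFit, eBayes, genotype and sex) was fitted to all probe sets and to the brightest probe set of each gene, with Benjamini-Hochberg adjustment over all features and a threshold of 0.05, and tested on simulated data. Confidence intervals in the comparison of probe set pairs use the pooled spread of the 8 mice. Members and lists were chosen with earlier results of these data known. Named were all receptor probe sets, the 4 listed genes of lowest adjusted p in each pathway list with a call, the 3 closest profiles and 5 tissue markers. The labels' mouse numbers name separate animals.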

Additional observations from a re-analysis of the deposited data

Results flagged for a closer look

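In the wild-type group, Grm8 (1421530_a_at) read 4.88 in mouse 180, against 4.50 to 4.55 in the other 3, a gap large for 4 mice. Of 18 groups of 4 examined this way 1 stood out, where chance gives about 1 in 20, and all values lay under 5.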

How the results depend on the processing

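No paired analysis was possible because the groups share no mouse number. Grm4 and 1458861_at of Grm7 kept direction and call in every setting run, and 0 receptor probe sets or genes rose in any. The 5 lower receptor probe sets became 3 without moderation of variances and 3 of 6 with brightest probe sets alone. With 1 mouse left out there were 3 to 5. The 3 came without mutant 191 or wild-type 161, where 1 sex of a genotype is gone and the lone mouse is assumed to vary like the rest. With sex also left out there were 6 in both cases, and 4 receptor genes. In either direction 6.7% of all probe sets passed in the main fit and 3.33% without moderation. The share was 12.4% with brightest probe sets alone, 1.45% without mutant 191 and 1.72% without wild-type 161. With sex also left out it was 7.51% without mutant 191 and 7.24% without wild-type 161, and 13.7% and 13.2% of genes. The 3 receptor genes became 4 without the sex term, with a trended and robust prior, with genes above the median level alone (4 of 4) and with probe sets averaged. Grm7 was added each time. Without wild-type 161 they became 2, where Grm3 was lost. Of all genes 12.4% passed in the main fit, 15.2% without the sex term and 15.2% with a trended and robust prior. The share was 27.9% with genes above the median level alone, 10.4% with probe sets averaged and 4.75% without wild-type 161. Grm3 and 1456119_at of Grm5 were those lost without moderation (adjusted p = 0.0621 and 0.0765), and 1456119_at also with values floored at 5 (0.0618). The cause was not tested.

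With 1 mouse left out, the counts lower were 4 to 9 for group I signalling, 0 to 1 for glutamate handling, 1 to 5 for ionotropic receptors and 0 to 1 for other class C receptors, and the counts higher were 0 to 1 for group I signalling and 1 to 3 for glutamate handling. Group I genes rising numbered 2 without sex, also without 161 or 191, and 1 above the median level or floored. Glutamate handling genes falling numbered 2 without sex, 2 above the median level, 1 on the mean of probe sets and 1 without sex and 161 or 191, and those rising 4 without sex, 1 floored and 3 without sex and 161. For ionotropic receptors 1 rose without sex and 161. For other class C receptors 0 fell floored. With 1 mouse left out, 3.86% (without mutant 191) to 12.4% (without mutant 153) of all genes passed in either direction, and 8.79% passed floored.

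Uncalled signs turned without sex and 191 for Grm2 (0.024), 1459532_at of Grm7 (-0.013), Grm8 (-0.033), Slc17a7 (0.10) and Mbp (0.013). With 1 mouse left out, 1459532_at ran from -0.040 to 0.41 and Gprc6a from -0.10 to 0.47. Floored at 5, the 3 dim receptor probe sets gave no value.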
